A study of Homo sapiens with 14 samples.

Results

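Broad H3K27ac domains are stretches of chromatin that carry acetylated lysine 27 of histone H3 over 10 kb or more without a break in the called peak. In control Jurkat cells, 429 such domains were found among 18697 merged H3K27ac regions, or 2.29% of them. They were chosen by width: the 2 control H3K27ac peak lists were merged wherever peaks shared at least 1 bp on chromosomes 1 to 22 and X, and a merged region was kept if each list had at least 1 peak of 10 kb or wider in it. Of the other merged regions, 14810 were called in both lists, and 2069 of these spanned 5 kb or more. These 2 sets are the comparison regions below. The widths and the control H3K27ac values thus chose the domains and are given as description. Near the limit, the domain chr2:195483716-195497764, outside genes and nearest to SLC39A10, was kept with peaks of 10013 and 14049 bp. The region chr12:129559727-129570010 in TMEM132D was not kept, with peaks of 10284 and 9997 bp. A further 96 and 104 regions had a 10 kb peak in list 1 only or list 2 only.

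H3K27ac marks active promoters and enhancers. Long stretches of it, often called super-enhancers or stretch enhancers, gather many transcription factor sites and tend to lie at genes that define a cell's lineage, and in T cell leukaemia also at oncogenes. SATB1 is a nuclear protein abundant in thymocytes that binds AT-rich DNA and is known for organising chromatin loops at lineage genes. CTCF is the zinc finger protein at which cohesin-extruded loops stop, and Matrin 3 is a nuclear matrix protein that binds RNA and DNA.

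The measurements were made by CUT&Tag, in which an antibody directs the Tn5 transposase to a chromatin protein so that the DNA beside it is tagged and sequenced. All 14 libraries came from Jurkat, an established human line from a T cell acute lymphoblastic leukaemia. Cells infected with lentivirus carried either a control short hairpin RNA (shCtrl) or one against SATB1 (shSATB1). H3K27ac was profiled in 2 shCtrl and 2 shSATB1 libraries, CTCF in 3 and 3, SATB1 in 2 shCtrl libraries, and Matrin 3 in 2 libraries of Jurkat cells with no hairpin on the label. No SATB1 library of the shSATB1 arm was analysed here, so the knockdown was not checked. Nothing states that replicates were separate cultures, so p-values apply only to these libraries, and the variation between them may be technical. An exact permutation p is the share of arrangements of the arm labels that give a difference in means at least as large.

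Each library is represented by 1 list of peaks, and its read depth is unknown. H3K27ac peaks numbered 17863 and 17141 in the shCtrl lists and 17925 and 15972 in those of shSATB1. The CTCF lists held 31141 to 32540 peaks in shCtrl and 14695 to 20284 in shSATB1. The SATB1 lists held 15210 and 14726 peaks, and 40.8% of the shorter list had the exact starts of peaks in the other, against at most 1.03% in the other 90 pairs of lists. They were therefore counted as 1 sample, with no spread between them. The Matrin 3 lists held 24566 and 2105 peaks. Of the 14 T cell markers, 12 overlapped an H3K27ac peak in both shCtrl lists, and PTPRC and TRBC1 did not. The share of all genes with such an overlap is not given here, so 12 of 14 is description only. An end of 7 of the 14 lay in a domain, against 0.936% of all protein-coding genes. LCK, CD5, CD7 and BCL11B had an H3K27ac peak in both lists and no domain.

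The promoters and microRNAs that follow lay inside domains and carry comparisons made below. Promoters are the 250 bases before an annotated start of the gene (RefSeq, GRCh38.p14), with CG dinucleotides in capitals. They are written 5′ to 3′ on the strand of the gene. RAG2 encodes a subunit of the V(D)J recombinase, CD3D a chain of the T cell receptor complex, CDK6 a cyclin-dependent kinase of the G1 phase, and TCF7 the T-lineage factor TCF1. A region of SATB1 binding lay over the promoters of RAG2 (chr11:36598237-36598486, minus strand) and CD3D (chr11:118342706-118342955, minus strand). None lay over those of CDK6 (chr7:92836574-92836823, minus strand) and TCF7 (chr5:134115363-134115612, plus strand). The TCF7 stretch lies inside the annotated gene, chr5:134108218-134148210, so it is not at the outermost start of that gene.
RAG2: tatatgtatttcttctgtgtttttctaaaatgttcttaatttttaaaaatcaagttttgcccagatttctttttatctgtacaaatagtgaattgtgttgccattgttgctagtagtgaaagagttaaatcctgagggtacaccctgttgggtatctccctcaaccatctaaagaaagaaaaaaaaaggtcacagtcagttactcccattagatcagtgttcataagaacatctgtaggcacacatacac
CD3D: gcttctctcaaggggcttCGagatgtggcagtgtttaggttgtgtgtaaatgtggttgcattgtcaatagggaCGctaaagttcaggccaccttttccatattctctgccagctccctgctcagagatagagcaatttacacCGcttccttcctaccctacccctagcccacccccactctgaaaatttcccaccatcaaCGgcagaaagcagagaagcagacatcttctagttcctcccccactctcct
CDK6: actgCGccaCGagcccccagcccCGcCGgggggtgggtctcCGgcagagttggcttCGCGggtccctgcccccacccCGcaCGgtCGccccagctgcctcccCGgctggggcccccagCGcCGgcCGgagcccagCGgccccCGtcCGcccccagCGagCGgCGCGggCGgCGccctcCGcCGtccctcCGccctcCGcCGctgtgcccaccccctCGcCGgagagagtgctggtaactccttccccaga
TCF7: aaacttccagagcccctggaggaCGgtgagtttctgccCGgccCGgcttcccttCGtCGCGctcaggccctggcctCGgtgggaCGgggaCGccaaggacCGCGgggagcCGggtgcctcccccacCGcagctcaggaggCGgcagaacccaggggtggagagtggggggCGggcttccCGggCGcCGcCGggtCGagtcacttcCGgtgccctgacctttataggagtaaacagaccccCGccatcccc
The RAG2 stretch holds 0 CG dinucleotides and that of CD3D holds 4, against 30 for CDK6 and 22 for TCF7. All 4 were inside H3K27ac domains of the same cells. These 4 examples do not show how SATB1 goes with CpG content, for which shares over promoters are given below.

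Of 1558 microRNA genes with a precursor entry in the RefSeq table, 15 had that entry overlapping a domain. By annotated gene positions, 17 of the 429 domains overlapped a microRNA gene. In a list of 20 microRNA genes active in T cells, 2 had an end in a domain. The domain chr17:58327405-58347585 holds MIR142, a microRNA gene known for its expression throughout blood cells, and the domain chrX:65997351-66024271 holds MIR223, known from myeloid cells and from T cell leukaemia. Their mature sequences are shown with the seed, bases 2 to 8, in capitals.
miR-142-5p: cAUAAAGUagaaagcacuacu
miR-142-3p: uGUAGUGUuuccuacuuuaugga
miR-223-5p: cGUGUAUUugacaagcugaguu
miR-223-3p: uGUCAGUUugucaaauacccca
The 4 seeds differ from each other. Among the other microRNAs inside domains, miR-4513 and miR-6855-3p share 1 seed, GACUGAC.

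The domains covered 8.75 Mb, which was 14.2% of the merged H3K27ac length. They held 2.97% and 3.17% of the peaks of the 2 shCtrl lists and 28.8% and 29.1% of the lists' total signal. Their median width was 16.8 kb (quartiles 13.5 and 23.2 kb, range 10.2 to 115.3 kb), and the median of the other regions was 2.52 kb. Widths of 20 kb or more were reached by 159 domains and of 40 kb or more by 21. Domains could lie close together: 40 pairs of neighbours were less than 10 kb apart and 10 pairs less than 1 kb, so neighbouring domains are not independent of each other. Relative to the number of protein-coding genes, domains were most frequent on chromosome 18, with 4.07 per 100 genes, and least frequent on chromosome 19, with 0.482. Chromosome 1 held 51, the highest number.

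Most domains overlapped a protein-coding gene. An annotated end of a protein-coding gene fell in 142 domains (33.1%, Wilson 95% interval 28.8 to 37.7), 190 lay inside a gene without reaching its ends (44.3%, 39.7 to 49.0), and 97 lay outside protein-coding genes (22.6%, 18.9 to 26.8). These intervals, like those below, cover counting error only. In the other regions the shares were 39.3%, 34.8% and 25.9%, and in those of 5 kb or wider 29.5%, 42.0% and 28.6%. The shares with a gene end and inside a gene thus stood nearer to those of the wider regions, and the share outside genes was below both. A single protein-coding gene overlapped 291 domains, and 41 overlapped 2 or more. A long non-coding RNA gene overlapped 140 domains, among them 55 of the 97 outside protein-coding genes.

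The widest domains were at CDK6, TCF7 and ETV6. CDK6 carried 3 neighbouring domains, of which the first, chr7:92602090-92717406, held the 3′ end of the gene and was the widest of all. H3K27ac peaks covered 115.0 and 115.2 kb of it in the shCtrl lists and 113.6 and 112.7 kb in the shSATB1 lists. The second, chr7:92717582-92787279, inside the gene, had 67.1 and 69.0 kb against 68.9 and 64.5 kb. The third, chr7:92787628-92854301, over the promoter printed above, had 65.2 and 62.4 kb against 62.1 and 61.3 kb. Less than 1 kb separated each domain from the next, so the 3 are pieces of a longer stretch and not separate cases. In shSATB1 replicate 1 a single peak of 116.8 kb overlapped both the second and the third. The widest peaks of the shCtrl lists, both in the first domain, spanned 115.0 and 115.2 kb. In the first domain SATB1 peaks covered 89.1 and 86.5 kb and CTCF peaks 91.6, 80.2 and 90.9 kb in shCtrl, then 18.7, 35.02 and 48.6 kb in shSATB1. H3K27ac thus spanned nearly the whole domain in all 4 lists, and the CTCF values of the arms did not overlap.

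The second widest by covered length, chr5:134074414-134151354, spanned TCF7 and its neighbours VDAC1 and SKP1. H3K27ac covered 74.4 and 76.9 kb in shCtrl and 74.4 and 69.6 kb in shSATB1. SATB1 covered little of it, 8.89 and 5.61 kb. CTCF covered 61.7, 65.0 and 63.5 kb in shCtrl and 23.7, 32.5 and 28.3 kb in shSATB1. The CDK6 and TCF7 domains were thus alike in H3K27ac and far apart in SATB1 cover, 76.1% of the length against 9.43%.

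ETV6, an ETS family repressor rearranged in leukaemias, carried the third, chr12:11749338-11826858, inside the gene. H3K27ac covered 76.4 and 74.6 kb in shCtrl and 64.3 and 56.3 kb in shSATB1. The difference in means was -15.2 kb (-20.1%), the largest loss in kb among the domains whose arms did not overlap. SATB1 covered 35.2 and 39.2 kb. CTCF covered 49.1, 44.5 and 44.9 kb in shCtrl and 6.21, 11.1 and 12.4 kb in shSATB1. Both marks were lower in every shSATB1 list than in every shCtrl list here.

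**Figure D1:**
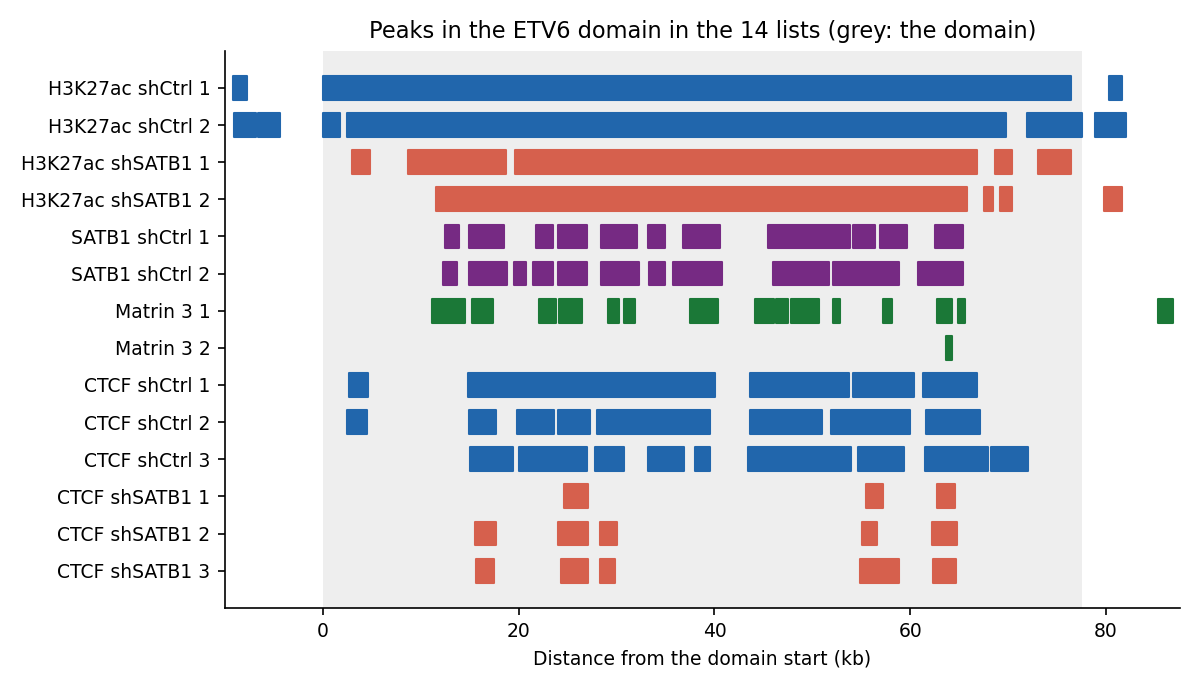
Peaks of the 14 lists along the ETV6 domain. The horizontal axis is the distance from the domain start in kb, each bar is 1 peak, each row 1 library, and the grey area is the domain. H3K27ac filled 76.4 and 74.6 kb in shCtrl and 64.3 and 56.3 kb in shSATB1, where the uncovered stretches lay mainly toward the ends of the domain, and the CTCF bars were shorter in the 3 shSATB1 rows.

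The other 5 of the 10 widest domains differed less between the H3K27ac arms than the ETV6 domain. A domain outside protein-coding genes at chr14:98161634-98220246 has BCL11B, a T-lineage commitment factor, as its nearest protein-coding gene at a distance of 949 kb. It had 58.6 and 56.9 kb in shCtrl and 55.8 and 53.8 kb in shSATB1. TSPAN7 (chrX:38604101-38663273) had 57.4 and 57.8 kb against 53.9 and 54.8 kb. CHST11 (chr12:104454807-104512802), a chondroitin sulfotransferase gene, had 58.0 and 55.4 kb against 55.1 and 55.8 kb. These were ranges of a few kb in domains of over 50 kb. SPTBN1 (chr2:54553406-54606397), encoding a spectrin, had 52.7 and 52.0 kb against 50.2 and 48.3 kb. LIMS2 and MYO7B (chr2:127592841-127644339) had 51.5 and 51.0 kb against 48.4 and 47.1 kb.

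**Figure D2:**
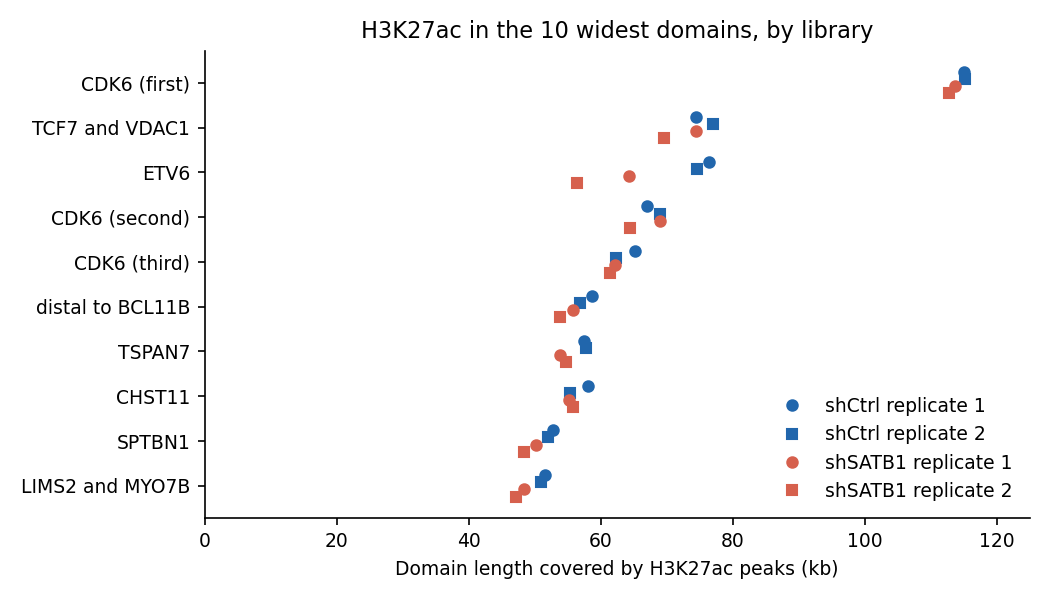
H3K27ac-covered length in kb (horizontal axis) in the 10 widest domains (vertical axis), 1 point per library, blue for shCtrl and orange for shSATB1, with circles and squares for replicates 1 and 2. The points of a domain lie close together except at ETV6, where the shSATB1 points are at 64.3 and 56.3 kb and the shCtrl points at 76.4 and 74.6 kb.

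Listed T cell and leukaemia genes had an end in a domain more often than protein-coding genes as a whole. The lists were chosen with earlier results of these data known, so the shares are description. Of 19970 protein-coding genes, 187 had an end in a domain, a background of 0.936%, and 330 (1.65%) were overlapped by one. Over 5 lists of T cell and leukaemia genes, 31 of 100 distinct genes had an end in a domain and 37 were overlapped by one. Over 5 lists of markers of other lineages (B, myeloid, erythroid, epithelial and neuronal), 0 of 34 had either. A wide domain can hold several genes, and genes that share a domain, such as CD3D and CD3G, are not separate observations.

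A list of 20 genes joined factors of the TAL1 circuit, which works in this type of leukaemia, with other leukaemia oncogenes. Of these, 5 had an end in a domain: TAL1, RUNX1, MYB, TCF12 and ETV6. The TAL1 domain, chr1:47222350-47246182, had 23.6 and 21.97 kb of H3K27ac in shCtrl and 22.2 and 22.7 kb in shSATB1, with only 2.77 and 2.68 kb of SATB1. RUNX1 was overlapped by 4 domains. The one over the upstream end of the gene, chr21:35002512-35052235, had 49.5 and 49.1 kb against 49.6 and 49.1 kb. SATB1 covered 27.6 and 27.2 kb of it. H3K27ac in both domains overlapped between the arms. MYB (chr6:135175858-135187921) had 12.1 and 11.0 kb against 11.3 and 12.1 kb.

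Of 24 T-lineage transcription factor genes, 6 had an end in a domain (TCF7, LEF1, TOX, IKZF1, IKZF2 and ID3) and ETS1, FLI1, ELF1 and SATB1 were overlapped by one. LEF1, a partner of TCF1, had 13.4 and 13.3 kb of H3K27ac in shCtrl and 13.0 and 12.9 kb in shSATB1. ETS1 (chr11:128462608-128508238) had 45.6 and 40.01 kb against 39.9 and 39.5 kb. The gene targeted by the hairpin, SATB1, carried a domain of its own at chr3:18363043-18380620, with 14.96 and 15.3 kb against 16.4 and 12.7 kb. SATB1 protein covered 12.2 and 11.6 kb of this domain in shCtrl. CTCF covered 3.94, 1.35 and 4.64 kb of it in shCtrl and 0, 0 and 0 kb in shSATB1, while H3K27ac overlapped between the arms.

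Of 24 genes of the T cell receptor complex and its signalling, 7 had an end in a domain: CD3D, CD3E, CD3G, ZAP70, LCP2, CD2 and CD28. CD247 and GRAP2 were overlapped by one. The domain shared by CD3D and CD3G, chr11:118334589-118348498, had 12.9 and 12.8 kb of H3K27ac in shCtrl and 12.3 and 10.01 kb in shSATB1. That of CD3E had 11.3 and 11.8 kb against 9.62 and 10.5 kb, so the arms overlapped in neither of these domains. They did overlap in the domain of CD247, another receptor chain, with 19.8 and 20.7 kb against 19.9 and 18.3 kb. They also overlapped at CD2, with 20.12 and 20.73 kb against 19.68 and 20.15 kb. ZAP70, the kinase that binds the phosphorylated receptor, had 19.9 and 20.7 kb in shCtrl and 17.3 and 15.7 kb in shSATB1. LCP2, encoding the adaptor SLP-76, had 29.8 and 31.0 kb against 27.2 and 25.1 kb. GRAP2, encoding an adaptor that binds SLP-76, had 42.2 and 39.4 kb against 34.7 and 30.6 kb. The arms did not overlap at these 3 adaptor and kinase genes. Over all domains, both shSATB1 values lay below both shCtrl values in 67.1%, so such a gap was common. At the co-stimulatory receptor gene CD28 (chr2:203702206-203722974) H3K27ac had 19.9 and 20.7 kb against 19.1 and 19.3 kb, while CTCF covered 14.1, 15.3 and 11.6 kb in shCtrl and 0, 0 and 2.12 kb in shSATB1.

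Of 14 thymocyte and recombination genes, 7 had an end in a domain: RAG2, DNTT, CD1A, CD1B, CD1C, CD1E and ARPP21. The RAG2 domain, chr11:36596310-36611945, had 15.2 and 15.4 kb of H3K27ac in shCtrl and 10.9 and 12.7 kb in shSATB1. SATB1 covered 8.93 and 7.03 kb of it, including the promoter printed above, and CTCF 0, 2.45 and 1.23 kb in shCtrl and none in shSATB1. DNTT, encoding terminal transferase, had 31.5 and 27.2 kb against 25.9 and 25.4 kb. ARPP21 (chr3:35632166-35666447) had 33.7 and 34.3 kb against 33.5 and 33.4 kb, with 27.03 and 25.8 kb of SATB1. The RAG2 and DNTT domains had lower values in both shSATB1 lists than in both shCtrl lists, and at ARPP21 the gap was under 1 kb.

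Of 18 receptor and homing genes, 6 had an end in a domain, among them CCR9, CXCR4, SELPLG, ITGA4 and IL2RG. CXCR4, the receptor of the chemokine CXCL12, had 27.8 and 27.6 kb of H3K27ac in shCtrl and 25.4 and 26.5 kb in shSATB1. IL2RG, the cytokine receptor common chain, had 11.6 and 12.5 kb against 11.9 and 12.1 kb, so its arms overlapped. Of 14 cell cycle and growth genes, CDK6 and CDKN1B had an end in a domain, and CCND3 and BCL2L1 were overlapped. The list of 14 Notch pathway genes had 0 with an end in a domain and 1 overlapped, IGF1R. Of 20 genes of genome architecture, the cohesin subunit gene RAD21 had an end in a domain, and SATB1 was overlapped. The lists of 21 immediate-early genes, 20 ribosomal protein genes and 16 housekeeping genes had 0 each.

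In the MIR142 domain H3K27ac covered 19.5 and 19.8 kb in shCtrl and 18.7 and 19.2 kb in shSATB1. CTCF covered 20.2, 19.1 and 19.4 kb in shCtrl and 16.5, 16.3 and 17.02 kb in shSATB1, so that most of the CTCF cover was present in both arms. In the MIR223 domain H3K27ac covered 25.7 and 26.9 kb against 23.3 and 22.1 kb, and CTCF 8.35, 12.1 and 12.5 kb against 1.22, 3.67 and 3.97 kb. The 2 domains differ in the share of CTCF cover seen in shSATB1.

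The 46 domains that overlapped a gene of the 5 T cell and leukaemia lists had a median width of 20.7 kb, against 16.8 kb for all 429. Their median SATB1-covered share was 48.7%, against 34.98%. Their median difference in H3K27ac-covered length between arms was -6.06%, against -8.30%. These lists were chosen with earlier results of these data known, and wider domains reach genes more often, so the medians are given as description only.

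SATB1 was found in nearly every domain. A SATB1 region called in both lists overlapped 422 of 429 domains (98.4%, 96.7 to 99.2), where 54.4% of all 15239 H3K27ac regions of both lists had one. Among the other regions of 5 kb or wider the share was 81.7%, so the share was higher in wider regions outside the domains too. SATB1 peaks covered 38.4% and 37.2% of domain length, 28.2% and 27.2% of the other regions, and 28.7% and 27.2% of those of 5 kb or wider. Per 100 kb there were 16.3 and 16.2 SATB1 maxima in the domains, 20.2 and 19.8 in the other regions, and 16.6 and 16.1 in those of 5 kb or wider, close to the domains. The median width of SATB1 peaks was 1767 and 1743 bp in domains, and 1268 and 1255 bp in the other regions. A median of 2 SATB1 regions lay in each domain, with 12 at most. A single region was found in 80 domains, 2 to 4 in 282, and 5 or more in 60.

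The highest SATB1-covered share, 86.6%, was at CABCOCO1 (chr10:61745444-61769446). It was followed by domains nearest to HBS1L (86.3%, chr6:135082925-135096129), nearest to PTPRC (86.0%, chr1:199025431-199049037) and nearest to TBC1D5 (85.3%, chr3:17899425-17914754). The next, inside IKZF2, which encodes the factor Helios, had 80.5% (chr2:213062198-213075925). In the domain nearest to HBS1L, 28.1 kb away, H3K27ac covered 13.1 and 13.2 kb in shCtrl and 12.7 and 12.9 kb in shSATB1. In the IKZF2 domain the values were 13.7 and 12.4 kb against 13.3 and 8.17 kb. Of these 5 domains, 3 lay outside protein-coding genes.

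In 7 domains there was no SATB1 region of both lists. The 5 widest lay near IKZF2 (chr2:212907875-212924913) and inside SLIT1, CELF2, MAPKAPK3 and GALNT2. Peaks of single SATB1 lists still covered 1.207 and 1.389 kb near IKZF2 and 1.586 and 1.205 kb in CELF2. They covered 1.235 and 0 kb in SLIT1 and 1.466 and 0 kb in GALNT2. In the domain near IKZF2, H3K27ac covered 16.4 and 16.8 kb in shCtrl and 11.0 and 13.1 kb in shSATB1. In CELF2 it covered 11.8 and 15.1 kb against 8.76 and 7.31 kb, and CTCF was at 0 in all 6 lists in both of these domains. In MAPKAPK3 (chr3:50615964-50629432), with 0 kb of SATB1, H3K27ac covered 13.5 and 13.3 kb against 9.53 and 6.12 kb. CTCF covered 12.9, 13.5 and 13.3 kb of it in shCtrl and 4.18, 7.23 and 7.14 kb in shSATB1. In GALNT2 the H3K27ac arms lay close together without overlapping, with 11.77 and 11.65 kb against 11.07 and 11.62 kb. Only 10.7% and 10.7% of the SATB1 maxima in domains lay within 2 kb of a gene end.

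The other proteins often lay at the same places, in domains of which their peaks covered a large part. Of the SATB1 maxima in domains, 69.0% and 71.1% lay under a CTCF peak in all 3 shCtrl lists. Each of these CTCF lists covered 56.8% to 61.1% of domain length. A share of 79.3% and 81.5% lay under a peak of the longer Matrin 3 list, which covered 35.4% of domain length. All 3 proteins, with Matrin 3 from the longer list, were in 410 domains (95.6%), in 70.9% of the other regions of 5 kb or wider and in 43.3% of all other regions. The longer Matrin 3 list reached 425 domains (99.1%) and the shorter list 53 (12.4%, 9.57 to 15.8), so the share rests on which list is used. In the shorter list, 17.6% of domains with a gene end, 13.2% of those inside a gene and 3.09% of those outside genes had a peak. Across the 429 domains, the SATB1-covered and Matrin 3-covered shares of length had Pearson's r of 0.50 and Spearman's rho of 0.53. SATB1 and CTCF in shCtrl had an r of 0.0074 and a rho of -0.0038. These correlations are over domains within the same libraries, and domains are not replicates.

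CTCF covered much of the domains in shCtrl and less in shSATB1. Its peaks covered 56.8%, 57.2% and 61.1% of domain length in shCtrl, 58.4% ± 2.36 (SD, n = 3), and 13.7%, 20.1% and 25.6% in shSATB1, 19.8% ± 5.96 (SD, n = 3). The lowest shCtrl library was more than double the highest shSATB1 library, and the difference in means was -38.5 percentage points (two-sided exact permutation test, p = 0.1, the smallest p that 3 against 3 libraries can give; 0.1 after Benjamini-Hochberg adjustment over 5 tests). In the other regions CTCF covered 62.0% ± 2.24 in shCtrl and 29.6% ± 5.86 in shSATB1. The log2 ratio of the domains' covered share to that of the other regions was -0.09 ± 0.01 in shCtrl and -0.61 ± 0.16 in shSATB1. The arms did not overlap, and the difference was -0.52 (exact permutation p = 0.1). Against the other regions of 5 kb or wider it was -0.28. The shSATB1 CTCF lists were shorter over the whole genome, and the depth of the libraries is unknown. The part of depth in the difference was not tested.

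**Figure D3:**
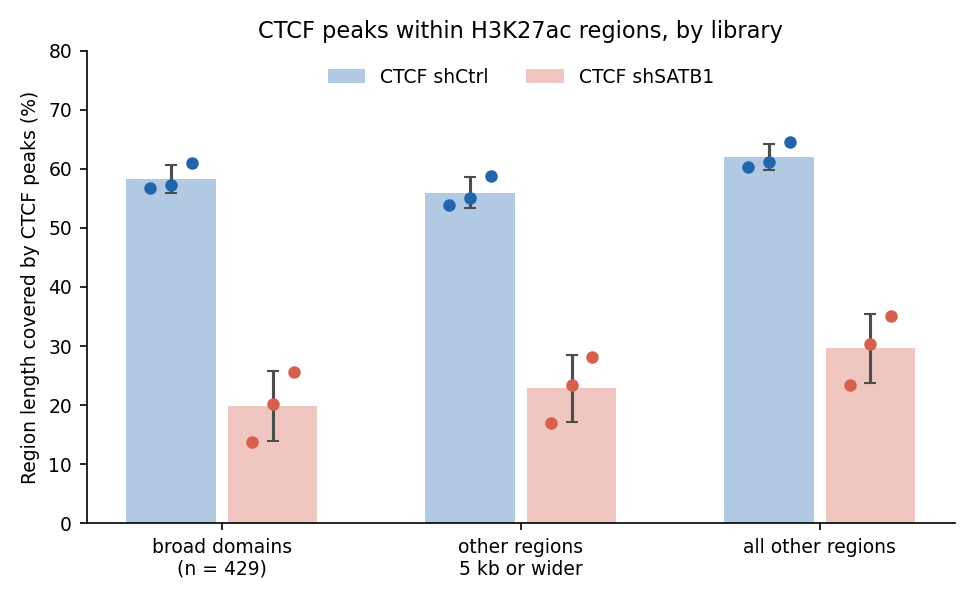
Share of region length covered by CTCF peaks (vertical axis, %) in the domains, in other H3K27ac regions of 5 kb or wider and in all other H3K27ac regions. Bars are means of 3 libraries, error bars are SD and points are libraries. In the domains the shCtrl points lie between 56.8% and 61.1% and the shSATB1 points between 13.7% and 25.6%.

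The number of CTCF maxima in domains was 934, 905 and 876 in shCtrl (905 ± 29, SD, n = 3) and 544, 648 and 753 in shSATB1 (648 ± 104.5, SD, n = 3). The share of domains with at least 1 maximum was 95.6%, 96.0% and 97.2% in shCtrl and 71.6%, 79.95% and 86.7% in shSATB1. Neither measure overlapped between the arms (exact permutation p = 0.1 for each). With all 6 CTCF lists cut to the 14695 peaks with the highest maxima, the covered share was still lower in shSATB1, 15.6% against 33.0%. The number of maxima then turned to the opposite direction, with means of 348 in shCtrl and 472.7 in shSATB1. So did the share of domains with a maximum, at 63.9% for shCtrl against 67.8% for shSATB1 (exact permutation p = 0.2). The direction of these 2 measures thus depends on list length, and that of the covered length did not change. CTCF peaks in domains were also narrower in shSATB1, with medians of 1857, 2216 and 2426 bp against 4007, 4257 and 4766 bp. Ranked by maximum signal within their own list, CTCF peaks in domains had median percentiles of 37.7, 39.5 and 40.6 in shCtrl, below the 60.4, 61.1 and 61.5 of CTCF peaks in other H3K27ac regions. The same order held in shSATB1, with 37.1, 35.2 and 38.6 in domains and 56.6, 56.4 and 56.5 in the other regions.

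CTCF differed with the position relative to genes. In domains with a gene end it covered 68.3% ± 2.69 in shCtrl and 28.0% ± 7.73 in shSATB1 (SD, n = 3 each). In domains inside a gene it covered 56.2% ± 2.08 and 16.7% ± 5.51, and in those outside genes 47.6% ± 2.51 and 13.8% ± 4.27. In shSATB1 a CTCF maximum lay in 93.0% of the domains with a gene end on average, in 75.1% of those inside a gene, and in 68.0% of those outside genes. The differences between these classes were not tested.

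Of 828 merged CTCF regions that overlapped domains, 158 (19.1%) were called in every shCtrl and no shSATB1 list, against a background of 22.7% of all 34146 CTCF regions. The reverse pattern was seen in 0, and 364 (44.0%) were called in all 6 lists, against 35.7% of all. Among the CTCF regions that overlapped other H3K27ac regions, the nearer comparison, 18.2% had the first pattern and 51.2% were in all 6 lists. The median width of CTCF regions was 6387 bp in domains, 3460 bp in other H3K27ac regions and 2982.5 bp over all. By domain, 34 (7.93%) had CTCF maxima in every shCtrl and no shSATB1 list, against 13.5% of all H3K27ac regions of both lists. Domains held a median of 2 CTCF maxima in each shCtrl list and the other regions 1. A domain with several maxima is counted only if all are absent in shSATB1. The part of width in these shares was not tested. The share of CTCF regions was thus below that of all regions and slightly above that in other H3K27ac regions. The 5 widest of these 34 were nearest to PRL, where they overlap the long non-coding RNA gene CASC15 (chr6:22009747-22039427), in KLF12, at GPR174, nearest to TBC1D5 in the non-coding gene BALR6, and in IKZF2 (chr2:213111516-213133653). In the CASC15 domain CTCF covered 9.78, 7.08 and 9.79 kb in shCtrl, and H3K27ac covered 27.3 and 27.5 kb in shCtrl and 25.5 and 24.6 kb in shSATB1. In the IKZF2 domain CTCF covered 6.09, 5.26 and 6.04 kb in shCtrl while H3K27ac covered 19.99 and 21.4 kb in shCtrl and 21.9 and 21.5 kb in shSATB1. In the CASC15 domain the H3K27ac values of shSATB1 were below those of shCtrl, and in the IKZF2 domain they were above.

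CTCF maxima were denser inside the domains than along their outer flanks. In shCtrl their density was 0.72 ± 0.04 per 100 kb in the 2 kb outside an edge, 9.29 ± 0.41 in the 2 kb inside, and 11.6 ± 0.0978 from 2 to 5 kb inside (SD, n = 3). From 5 to 10 kb outside it was 1.29 ± 0.06. Other regions of 5 kb or wider had the same order, with 0.93 outside and 11.0 and 15.3 inside. In shSATB1 the density was 0.52 outside and 7.44 and 7.46 inside the domains. SATB1 maxima numbered 0.89 and 0.82 per 100 kb in the 2 kb outside, 10.7 and 10.5 in the 2 kb inside, and 17.6 and 17.9 from 2 to 5 kb inside. The longer Matrin 3 list had 0.74, 14.6 and 21.5. In these shCtrl and Matrin 3 lists the maxima were thus less dense in the first 2 kb inside an edge than from 2 to 5 kb. Flanking windows that fell in another H3K27ac region were left out, so the outer values are for sequence without called H3K27ac in shCtrl.

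Within 2 kb on either side of a domain edge there were 187, 171 and 177 CTCF maxima in shCtrl and 124, 139 and 158 in shSATB1. The difference in means was -38.0 maxima, and the arms did not overlap (exact permutation p = 0.1). With lists of equal length the direction turned, to 111.7 in shSATB1 against 82.3 in shCtrl.

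**Figure D4:**
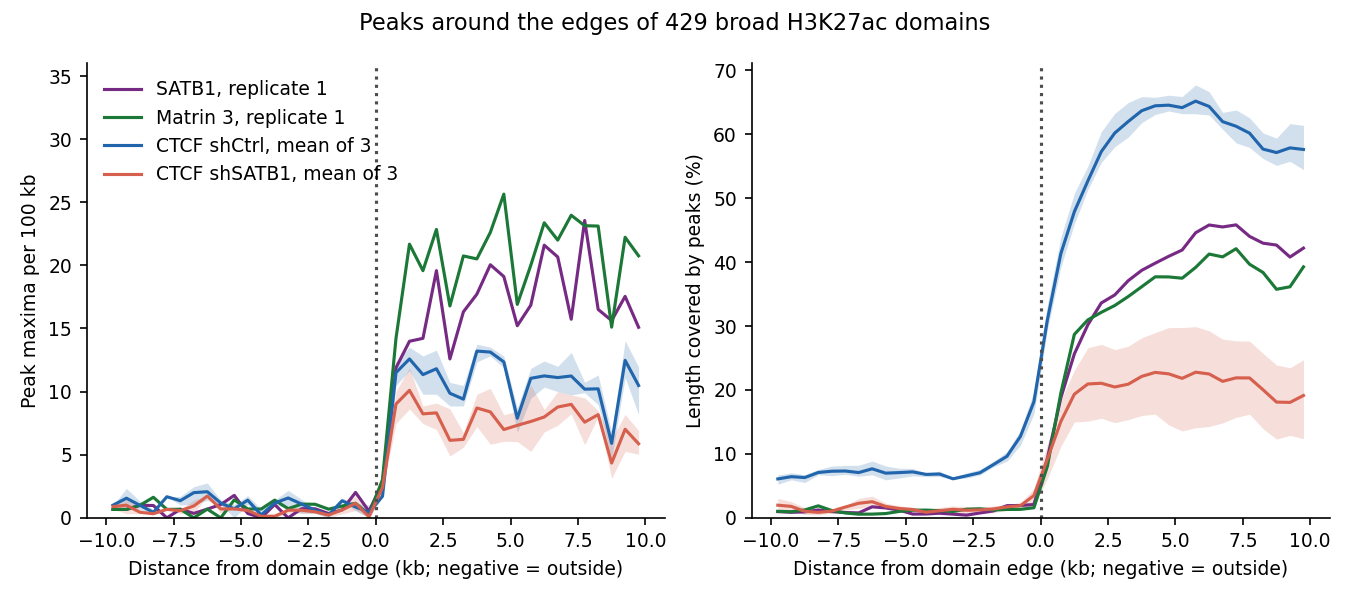
Density of peak maxima per 100 kb (left) and share of length covered by peaks in % (right) against the distance from a domain edge in kb, negative outside. CTCF lines are means of 3 libraries with bands from the lowest to the highest, and the SATB1 and Matrin 3 lines are 1 library each. For maxima, CTCF in shCtrl steps from 0.72 per 100 kb in the 2 kb outside to 9.29 in the 2 kb inside.

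H3K27ac itself was lower in the domains in shSATB1, with the reservation that the shCtrl lists chose them. Its peaks covered 96.5% and 95.6% of domain length in shCtrl and 88.4% and 85.1% in shSATB1, a difference of -9.26 percentage points. In the other regions the means were 88.1% and 65.3%, and in those of 5 kb or wider 90.5% and 71.9%. A single peak spanned all called H3K27ac of 347 and 336 domains in shCtrl, and of 169 and 182 in shSATB1. A peak of 10 kb or wider was still present in both shSATB1 lists in 262 domains (61.1%), in 1 of them in 80 and in neither in 87. Both shSATB1 values lay below both shCtrl values in 288 domains (67.1%), against a background of 52.7% of the H3K27ac regions, and above in 6 (1.40%), against 1.67%. Because the domains were chosen for wide peaks in the shCtrl lists, 1 side of this contrast, nothing is read from these shares. When domains were chosen from the shSATB1 lists in the same way, an alternative added after the data were seen, 290 were found, 265 of which overlapped a shCtrl domain. In these the shCtrl lists covered 95.8% and 95.7% and the shSATB1 lists 97.1% and 94.8%, so that the difference turned to 0.212 percentage points.

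The domains with the largest losses of H3K27ac after ETV6 were in ZMIZ1 (28.0 and 25.5 kb in shCtrl, 19.6 and 16.3 kb in shSATB1), at GRAP2, in MACROH2A1 (16.4 and 17.4 kb against 10.3 and 8.55 kb) and at GALNT6 and SLC4A8 (14.98 and 15.8 kb against 8.10 and 8.43 kb). This order is by kb. As a percentage of the shCtrl mean, ZMIZ1 was at -33.0%, GRAP2 at -19.9% and MACROH2A1 at -44.2%. GALNT6 and SLC4A8 were at -46.3%, and ETV6 was at -20.1%. ZMIZ1 encodes a co-activator of NOTCH1, and MACROH2A1 a variant histone. The largest gains were small, but cover was counted only inside the edges set by the shCtrl lists. Those lists already covered 96.5% and 95.6% of domain length, so gains were limited by the measure. Extension past an edge was not counted. At RCBTB2 (chr13:48484294-48513115) H3K27ac covered 26.2 and 26.9 kb in shCtrl and 28.5 and 28.6 kb in shSATB1. A second domain 24.5 kb from RCBTB2 (chr13:48560353-48581608) had 20.3 and 20.7 kb against 21.2 and 21.1 kb. The others were the IKZF2 domain given above, ESYT2, and a domain nearest to SPAG16 with a gain of 0.358 kb. The widest shSATB1 peaks overlapping that IKZF2 domain of 22.1 kb spanned 30.7 and 34.3 kb, so they reached past its edges. Of the 5 gains, 2 thus lay at or beside RCBTB2, and the largest was 2.00 kb.

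Domains with more SATB1 in shCtrl had more H3K27ac cover in shSATB1. The domains were ranked by SATB1-covered share and divided into 4 groups of 107 or 108. With medians of 15.9%, 28.4%, 41.5% and 59.1%, H3K27ac in shSATB1 covered 83.4% and 78.8% of the lowest group. It covered 86.9% and 82.6% of the second, 88.7% and 85.9% of the third, and 93.8% and 92.1% of the highest. In shCtrl the lowest group had 95.5% and 94.9% and the highest 97.6% and 96.5%. A peak of 10 kb or wider was present in both shSATB1 lists in 43.5%, 51.4%, 64.5% and 85.0% of the 4 groups in that order. Median domain widths were 16.1, 17.1, 16.6 and 18.3 kb, and the part of width was not tested. Over the 429 domains, SATB1 share and H3K27ac cover in shSATB1 had an r of 0.42 and a rho of 0.43. The H3K27ac maximum moved with the groups: its median percentile within the shCtrl lists was 96.3 and 96.2 in the lowest group and 98.1 and 98.3 in the highest, and its part in the pattern was not tested. Among the 290 domains chosen in the shSATB1 lists, a peak of 10 kb or wider was present in both shCtrl lists in 83.6%, 91.7%, 98.6% and 91.8% of 4 groups made in the same way. For CTCF cover, 5 of the 6 lists did not have the highest group on top. From the lowest to the highest group, shCtrl replicate 1 had 52.3%, 59.4%, 57.5% and 57.5%, and shSATB1 replicate 1 had 13.7%, 14.2%, 14.4% and 12.6%. The exception, shSATB1 replicate 3, had 22.7%, 26.4%, 25.7% and 27.2%.

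**Figure D5:**
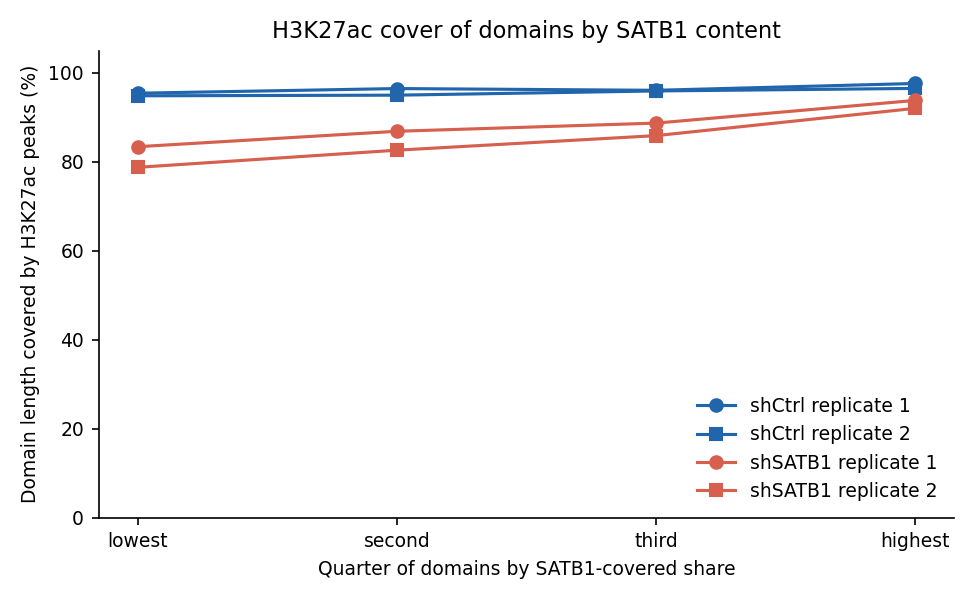
Share of domain length covered by H3K27ac peaks (vertical axis, %) in 4 equal groups of the domains by SATB1-covered share (horizontal axis), 1 line per library, blue for shCtrl and orange for shSATB1. The shSATB1 lines go from 83.4% and 78.8% in the lowest group to 93.8% and 92.1% in the highest, and the shCtrl lines stay between 94.9% and 97.6%.

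Promoters in domains were more often poor in CpG than promoters in other H3K27ac regions. Of 15811 promoters in the RefSeq table, each from 250 bases before to 50 after an annotated start, 128 lay in domains. That start can lie inside the gene, as at TCF7. Of these, 21.9% held 5 or fewer CG dinucleotides, as the RAG2 and CD3D promoters do, against 3.16% of the 5638 promoters in other H3K27ac regions and 19.5% of all promoters. A SATB1 region lay over 82 of the 128 (64.1%), against 53.0% in the other H3K27ac regions and 21.4% overall. CTCF peaks of all 3 shCtrl lists lay over 120 (93.8%) and of all 3 shSATB1 lists over 76 (59.4%). In the other H3K27ac regions these shares were 95.8% and 66.6%, and over all promoters 51.6% and 32.4%. By CpG content, all 3 shSATB1 lists had CTCF over 35.7% of the 28 promoters with 5 or fewer, 51.7% of the 29 with 6 to 20, and 71.8% of the 71 with more. The same order was seen in the other H3K27ac regions, with 31.5%, 60.9% and 69.9%. In shCtrl the shares in domains were 89.3%, 93.1% and 95.8%. Over the CpG-rich TCF7 promoter, CTCF was called in 3 shCtrl lists and 0 shSATB1 lists, and over the CpG-poor CD3D promoter in 3 and 3, so these 2 genes go against the order of the shares.

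Short motifs were counted on both strands of the same promoters. The ETS core GGAAGT was in 19.5% of promoters in domains, 32.2% of those in other H3K27ac regions and 24.8% of all promoters. The RUNX motif TGTGGT was in 12.5%, 9.28% and 10.8%, the E-box CAGATG bound by TAL1 complexes in 14.8%, 8.32% and 11.7%, and the GATA motif AGATAA in 10.9%, 4.19% and 7.55%. The 4 motifs are distinct strings, and none contains another. In the printed stretches, RAG2 held 1 E-box and 1 GATA match, CD3D 1 RUNX match, TCF7 2 ETS matches, and CDK6 held 0 of the 4 motifs. A match is a string of letters and does not show binding.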

How the data were processed

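CUT&Tag peak lists of 14 Jurkat libraries were used, 1 list per library. The submitters' processing notes name the tools SEACR, deepTools, SAMtools, Bowtie2 and Trim Galore for each library, MACS2 for all but Matrin 3, and the build GRCh38. Their versions and settings are not given in the sources used here. For each peak the authors deposited its position, total signal and maximum signal with no scaling recorded. Signal was used to rank and filter peaks within a list and as a share of a list's total. Of 273747 peaks, 405 (0.148%) on other chromosomes were left out. Overlaps needed 1 bp, and a maximum was placed at the centre of the deposited maximum region. Domains, coverage and exact permutation tests over libraries were computed with Python 3.11.15, numpy 2.4.6, pandas 2.3.3 and scipy 1.17.1, and tested on simulated data. Figures were drawn with matplotlib 3.10.9. Positions were compared with RefSeq tables of GRCh38.p14, in which all 256 listed genes were found by symbol.

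Domains were named by overlapping protein-coding genes, else by the nearest one. Named are the 10 widest, those nearest the 10 kb limit, listed genes with an end in a domain, and microRNA genes. Also named are the 5 with the highest SATB1 share and the 5 widest without a SATB1 region of both lists. The rest are the 5 largest losses and gains among domains whose H3K27ac arms do not overlap, and the 5 widest that lost CTCF. A listed gene is not reported here by name. Members, lists and tests were chosen with earlier results of these data known. Alternatives were other widths, merging within 1 kb, the upper 75% of peaks, equal CTCF list lengths, other overlap rules and windows, leaving out libraries, and a replicate block.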

Additional observations from a re-analysis of the deposited data

How the results depend on the processing

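CTCF-covered length and its log2 ratio to other regions kept their direction under every alternative run. Two-sided exact tests of 3 against 3 libraries cannot go below p = 0.1, so none can pass 0.05, and p was 0.1 to 0.25 over the alternatives. With CTCF lists of equal length the differences between arms in maxima, in domains with CTCF and in maxima at edges reversed, to 124.7 maxima, 3.81 percentage points (exact permutation p = 0.2) and 29.3 maxima. The H3K27ac difference reversed to 0.212 points in domains chosen in the shSATB1 lists and was -6.30 points in domains with a 10 kb peak in all 4 lists. The mean SATB1-covered share of 37.8% became 36.3% with peaks of 8 kb or wider, 40.3% with 15 kb, 36.2% with merging within 1 kb and 35.3% with the upper 75% of peaks. With 15 kb, 188 domains were left, the Matrin 3 share became 18.6% and the genes with an end in a domain 78 instead of 187. For these values the cause was not tested, beyond the smaller number of domains. Peaks of 8 kb or wider gave 688 domains and merging within 1 kb gave 416.

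Leaving out 1 library at a time gave differences between arms of -41.4 to -35.5 points in CTCF-covered length, -309 to -204.5 maxima, -20.5 to -12.9 points in domains with CTCF, -0.59 to -0.43 in the log2 ratio, -46.8 to -29.8 maxima at edges and -10.9 to -7.61 points in H3K27ac. Single lists gave 99.1% to 99.5% of domains with SATB1 and 37.2% to 38.4% of length. The Matrin 3 share was 99.1% without Matrin 3 replicate 2 and 12.4% without replicate 1.

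Replicate numbers are not stated to pair libraries, and same-numbered CTCF libraries had correlations of 0.0964, 0.0136 and 0.0327 between their deviations from group means over the domains. With the replicate block the differences stayed at -38.5 points, -256.7 maxima, -16.9 points, -0.52 and -38.0 maxima, each with an exact sign-flip p of 0.25, the smallest that 3 pairs can give, and H3K27ac at -9.26 points.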
